A study of Mus musculus with 258 samples.

Results

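The granin family is a group of acidic proteins packed into the secretory granules of endocrine cells and neurons. Its members here were the genes with the symbols Chga, Chgb, Scg2, Scg3, Scg5 and Vgf, which are 6 of the 40824 genes listed in each count table. Their RNA was followed through the formation of endocrine cells in the embryonic mouse pancreas. The bulk data are 2 libraries for each of 3 sorted populations. Dorsal pancreas of Ngn3-GFP embryos at day E13.5 gave the Ngn3-low and Ngn3-high sorts, where green fluorescence reports the endocrine progenitor gene Neurog3 (Ngn3). Ins1-RFP+ cells came from E17.5 Ins1-RFP embryos, where red fluorescence reports insulin, and the submitters call them nascent beta cells. The single-cell data hold 221 cells of E13.5 dorsal pancreas. They were 49 WT Ngn3-low, 59 WT Ngn3-high, 69 Pdx1-Cre; Jmjd3 fl/fl Ngn3-low and 44 Pdx1-Cre; Jmjd3 fl/fl Ngn3-high cells, and the cells with that genotype are called Jmjd3-deleted below. Pdx1-Cre is a recombinase active in pancreatic progenitors, and Jmjd3, encoded by Kdm6b, removes methyl groups from histone H3 lysine 27. Since no Cre is named for the WT cells, an effect of the Cre itself cannot be told apart from one of the deletion.

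Granins aggregate with calcium in the trans-Golgi network and help to form the dense core of secretory granules, where they lie beside peptide hormones. Several are also precursors that prohormone convertases cleave into bioactive peptides. In islets they are known as general markers of endocrine cells, and chromogranin A in blood is used as a marker of neuroendocrine tumours. Chga encodes chromogranin A, Chgb chromogranin B and Scg2 secretogranin II, the precursor of secretoneurin. Scg3 encodes secretogranin III, which ties granule cargo to cholesterol-rich granule membrane. Scg5 encodes 7B2, a chaperone of the convertase encoded by Pcsk2. Vgf encodes a neurotrophin-inducible precursor of several secreted peptides. The genes are not clustered. Chga (ENSMUSG00000021194) lies on chromosome 12 from 102554941 to 102565027 in RefSeq coordinates of GRCm38, the assembly also called mm10, and Chgb (ENSMUSG00000027350) lies on chromosome 2 from 132781642 to 132795079. Scg2 (ENSMUSG00000050711) lies on chromosome 1 from 79434366 to 79440026, and Scg3 (ENSMUSG00000032181) lies on chromosome 9 from 75643366 to 75685959. Scg5 (ENSMUSG00000023236) lies on chromosome 2 from 113776313 to 113829091, and Vgf (ENSMUSG00000037428) lies on chromosome 5 from 137025301 to 137033351.

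Promoters are shown for the 3 members that carried most of the family's RNA or changed most. The short letters marked in them are not particular to these 3. The stretches are the 120 bases before the start site in RefSeq (GRCm38), read 5′ to 3′ on the strand of the gene. Capitals mark TGACGTCA, the palindromic cyclic AMP response element, or, where only that is found, its leading part TGACG.
Chga, plus strand, chr12:102554821-102554940: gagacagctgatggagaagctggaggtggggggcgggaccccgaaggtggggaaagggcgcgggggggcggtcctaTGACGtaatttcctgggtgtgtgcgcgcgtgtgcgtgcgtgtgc
Chgb, plus strand, chr2:132781522-132781641: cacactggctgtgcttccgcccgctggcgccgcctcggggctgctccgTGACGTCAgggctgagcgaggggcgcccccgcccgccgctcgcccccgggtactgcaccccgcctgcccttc
Scg2, minus strand, chr1:79440027-79440146: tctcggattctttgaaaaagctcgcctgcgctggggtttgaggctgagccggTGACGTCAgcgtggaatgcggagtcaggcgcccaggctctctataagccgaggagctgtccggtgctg

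RefSeq promoters were found for 5 members, all but Vgf, and were searched over 250 bases before the start site on both strands. TGACGTCA stood at -72 to -65 in Chgb and at -68 to -61 in Scg2, where -1 is the last base before the start site. It was found in 1.62% of 27025 promoters of the same length. The shorter TGACG, which lies inside TGACGTCA, was found in all 5 promoters, at -44 in Chga, -30 in Scg3 and -175 in Scg5 (first base). The start site given for Scg3 lies inside the span of the gene given above, so its window may not be the promoter in use. TGACG was found in 17.9% of all promoters. The E-box CANNTG, the letters bound by Ngn3 and NeuroD1 among many other factors, was present in 4 of the 5 promoters, all but Scg3, against 66.04% of all promoters. The narrower E-box CAGATG and the TATA box TATAAA had 0 matches in the 5 windows, against 14.48% and 12.97% of all promoters. These matches describe letters in a window, and no binding was measured here.

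Bulk libraries held 11957415 to 17760214 reads in genes, and single cells 380478 to 1949839 with a median of 708409. Levels are given as counts per 1000000 reads in genes (CPM), and all 6 members passed the expression filter of the bulk test. The sorts were checked by their reporter genes: Neurog3 rose by 2.77 on the log2 scale from Ngn3-low to Ngn3-high (SE 0.150, edgeR adjusted p = 1.75e-06), and Ins1 rose by 8.37 from Ngn3-high to Ins1-RFP+ (SE 1.14, adjusted p = 0.000549). White blood cell markers summed over 11 genes stood at 2933 and 2459 CPM in bulk Ngn3-low and at 10.6 and 4.77 CPM in Ngn3-high, where Fcgr1 and Cd53 had 0 reads. Endothelial markers (11 genes) summed to 453 and 494 CPM against 18.98 and 14.6 CPM, and markers of neural crest, glia and autonomic neurons (12 genes), lineages that can make granins, to 495 and 485 CPM against 103 and 98.7 CPM. Ednrb and Erbb3, at means of 229 and 238 CPM, made up most of that Ngn3-low sum. Of the 9 markers tested in this last list, 2 fell and 2 rose, where 30.2% of all genes tested fell and 27.7% rose. Neither count is above the share over all genes. Th, the rate-limiting enzyme of catecholamine synthesis and 1 of the 2 that rose, went from a mean of 1.06 to 14.2 CPM. Acinar markers (14 genes) differed within Ins1-RFP+, at 1587 CPM in library 1 and 26714 CPM in library 2. The part of these other cells in the granin differences was not tested.

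From Ngn3-low to Ngn3-high, every granin gene rose, with 6 of 6 members called higher and 0 lower. Over the 15684 genes tested, 27.7% were called higher and 30.2% lower (edgeR quasi-likelihood test, Benjamini-Hochberg adjusted p under 0.05). The median difference of the 6 members was 4.66 on the log2 scale, against -0.01 for all genes tested. In bulk samples, fewer cells that make a gene and less RNA per cell cannot be told apart. Libraries of one group are separate samples by their labels, but no animals are named, so p-values measure the spread between these samples only.

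Chgb moved most. It stood at 28.9 and 19.5 CPM in Ngn3-low and at 8394 and 9472 CPM in Ngn3-high. The groups lay far apart, and the fitted difference of 8.60 on the log2 scale (SE 0.296, edgeR adjusted p = 3.72e-07) was a 389-fold rise and rank 11 among the 15684 genes. Chga, the other classical chromogranin, stood at 41.9 and 22.6 CPM in Ngn3-low and at 965 and 988 CPM in Ngn3-high. Its rise was 4.99 (SE 0.327, edgeR adjusted p = 4.48e-06), 31.8-fold, so the member with more RNA per length in Ngn3-low cells was not the one that rose most.

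Scg3, the membrane-binding member, stood at 9.68 and 7.69 CPM in Ngn3-low and at 275 and 373 CPM in Ngn3-high. It rose by 5.29 (SE 0.233, edgeR adjusted p = 6.72e-07), a 39.1-fold difference. Scg2 stood at 8.61 and 4.66 CPM in Ngn3-low and at 58.7 and 72.2 CPM in Ngn3-high, a rise of 3.35 (SE 0.290, edgeR adjusted p = 2.16e-05). Both groups of Scg2 values lay apart, but the Ngn3-high level stayed far under that of Chga. Scg5, the convertase chaperone, went from 6.19 and 5.23 CPM to 47.5 and 49.01 CPM, a rise of 3.15 (SE 0.159, edgeR adjusted p = 1.25e-06). Vgf was the scarcest, with 27 and 9 reads in the Ngn3-low libraries (1.52 and 0.736 CPM) and 27.6 and 17.4 CPM in Ngn3-high. It rose by 4.33 (SE 0.437, edgeR adjusted p = 5.46e-05), and by 5.03 without Ngn3-low library 1. For all 6 genes both Ngn3-high libraries lay above both Ngn3-low libraries. How many of all genes lay apart in this way was not counted.

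**Figure D1:**
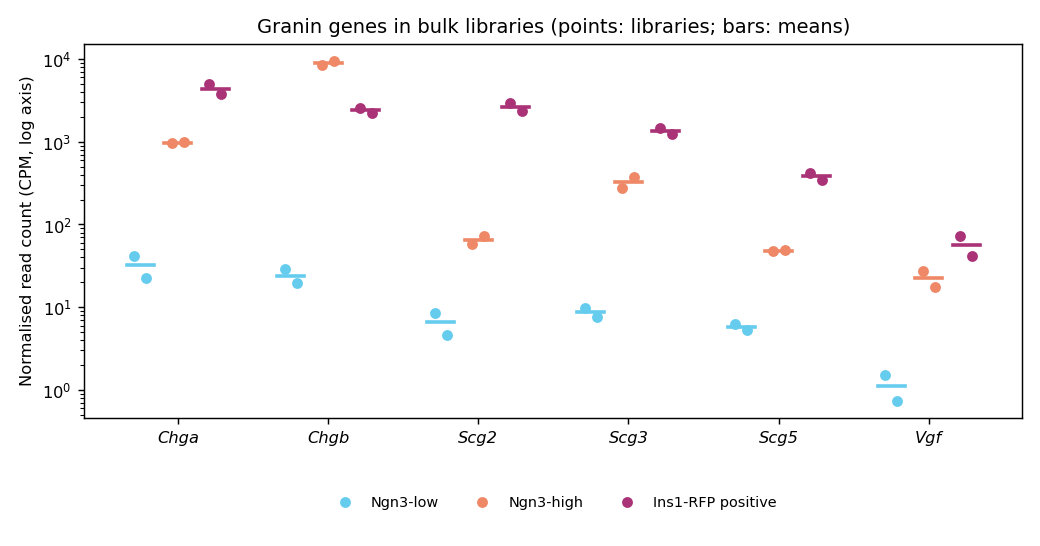
Normalised read count of each granin gene (CPM, log axis) in the 6 bulk libraries. Points are libraries, 2 per group, and bars are group means. All 6 genes are lowest in Ngn3-low, and Chgb alone is higher in Ngn3-high (8394 and 9472 CPM) than in Ins1-RFP+ (2562 and 2213 CPM).

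From Ngn3-high at E13.5 to Ins1-RFP+ at E17.5, the family split: 5 members rose further and Chgb fell. Of all genes tested, 26.1% were called higher and 24.9% lower. Age, reporter and cell stage change together in this comparison and cannot be told apart. It shares the Ngn3-high libraries with the one before, so a high or low value in those libraries moves both in opposite directions.

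Chgb stood at 2562 and 2213 CPM in the Ins1-RFP+ libraries, below both Ngn3-high libraries. The fitted difference was -1.82 on the log2 scale (SE 0.218, edgeR adjusted p = 0.000276), a 3.53-fold fall. Scg2, the secretoneurin precursor, moved furthest the other way. It stood at 2980 and 2355 CPM in Ins1-RFP+, a rise of 5.44 (SE 0.301, edgeR adjusted p = 7.10e-06) or 43.3-fold, and both libraries lay far above the 58.7 and 72.2 CPM of Ngn3-high. Scg2 thus rose more in the second interval than in the first, whereas Chgb rose only in the first.

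Chga stood at 4932 and 3768 CPM in Ins1-RFP+ and rose by 2.24 (SE 0.287, edgeR adjusted p = 0.000390). Scg3 stood at 1487 and 1231 CPM and rose by 2.16 (SE 0.196, edgeR adjusted p = 6.46e-05). Scg5 stood at 424 and 349 CPM and rose by 3.09 (SE 0.142, edgeR adjusted p = 3.35e-06), about as much as in the first interval, where it rose by 3.15. These 3 genes had no library of one group inside the range of the other, which was also not counted over all genes. Vgf stood at 72.5 and 42.1 CPM and rose by 1.42 (SE 0.321, edgeR adjusted p = 0.00659). Without Ngn3-high library 2 this call was lost, at a difference of 1.12 and an adjusted p of 0.0588.

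Ins1-RFP+ against Ngn3-low gives the whole interval, and shares its libraries with both comparisons above. All 6 members were called higher, where 30.4% of the genes tested were higher and 35.5% lower. The differences on the log2 scale were 8.79 for Scg2 (SE 0.355), 7.44 for Scg3 (SE 0.255), 7.23 for Chga (SE 0.361), 6.78 for Chgb (SE 0.274), 6.23 for Scg5 (SE 0.171) and 5.75 for Vgf (SE 0.437), which was 6.46 without Ngn3-low library 1. Scaling by total counts in place of trimmed means moved the median of all genes by -0.17 in this comparison, which is small beside these differences.

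The family's share of gene reads changed little after the Ngn3-high stage, while its make-up turned over. The 6 genes together took 0.00968% and 0.00604% of gene reads in the Ngn3-low libraries, 0.977% and 1.10% in Ngn3-high, and 1.25% and 0.996% in Ins1-RFP+. The last 2 ranges overlap. To compare genes with each other, CPM was divided by gene length in kilobases, and each gene was taken as a share of the family's sum. By this measure Chgb made up 81.2% and 81.9% of the family in Ngn3-high and 16.2% and 17.6% in Ins1-RFP+. Chga went from 13.6% and 12.4% to 45.4% and 43.5%. Scg2 went from 0.618% and 0.680% to 20.5% and 20.4%, and Scg3 from 3.24% and 3.92% to 11.4% and 11.9%. In Ins1-RFP+, where acinar markers differed between libraries, the shares of these 4 genes lay within 2 percentage points of each other. In Ngn3-low the libraries differed more, with Chga at 48.2% and 41.4%.

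Per length, the ratio of Chgb to Chga was 0.473 and 0.592 in Ngn3-low, 5.97 and 6.59 in Ngn3-high, and 0.357 and 0.403 in Ins1-RFP+. Chgb was thus above Chga in the Ngn3-high libraries only among these bulk groups. The order of levels per length in Ngn3-high was Chgb at 3260 ± 278 CPM per kilobase (SD, n = 2), Chga at 519 ± 8.59, Scg3 at 144 ± 30.7, Scg5 at 39.9 ± 0.878, Scg2 at 26.01 ± 3.80 and Vgf at 7.95 ± 2.56. No neighbours in that order overlapped. In Ins1-RFP+ it was Chga at 2311 ± 437, Scg2 at 1060 ± 176, Chgb at 871 ± 90.2, Scg3 at 604 ± 80.3, Scg5 at 320 ± 43.5 and Vgf at 20.2 ± 7.59 CPM per kilobase. Scg2 lay above Chgb within each library, at 1185 against 935 and at 936 against 808, but its lower library was level with the higher one of Chgb. In Ngn3-low, Chga led at 17.1 ± 7.28 and Vgf was last at 0.398 ± 0.196 CPM per kilobase.

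**Figure D2:**
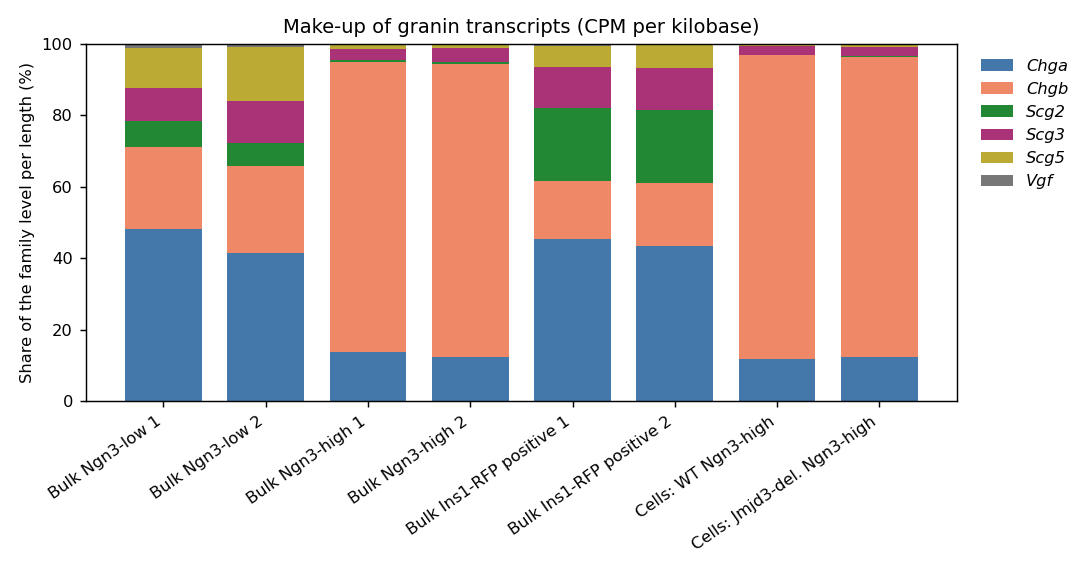
Share of the summed granin level per length (CPM per kilobase, %) held by each member, in the 6 bulk libraries and in the pooled reads of WT and Jmjd3-deleted single Ngn3-high cells. Chgb fills 81.2% to 85.2% of the 4 Ngn3-high bars and 16.2% and 17.6% of the Ins1-RFP+ bars, where Chga and Scg2 are large.

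Single Ngn3-high cells had Chga, Chgb, Scg3 and Scg5 within 2-fold of their bulk means, and far less Scg2 and Vgf. Each single-cell group counts as 1 sample, because no animal is named for the cells, so no test was made, and the 95% intervals below are exact and cover counting error only. Reads were not marked by molecular identifiers. Pooled over the 59 WT Ngn3-high cells, Chgb stood at 7895 CPM (7869 to 7922), Chga at 749 CPM (741 to 757), Scg3 at 176 CPM (173 to 180) and Scg5 at 26.8 CPM (25.3 to 28.3). In the 49 WT Ngn3-low cells Chgb stood at 7.48 CPM (6.57 to 8.49), Chga at 0.835 CPM (0.550 to 1.21), Scg3 at 0.124 CPM (0.0337 to 0.317) and Scg5 at 1.95 CPM (1.50 to 2.49). These 4 genes were higher in Ngn3-high by over 2-fold. Of the 11792 genes at 5 CPM or more in either group, 14% were at least 2-fold higher and 19% lower. The difference with 1 CPM added was 9.86 for Chgb, 8.67 for Chga, 7.30 for Scg3 and 3.24 for Scg5 on the log2 scale. In Jmjd3-deleted cells the same differences were 10.49, 8.71, 7.18 and 3.60, with 15.3% of 11815 genes at least 2-fold higher and 18.7% lower.

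Scg2 and Vgf were nearly absent from single Ngn3-high cells. Scg2 had 24 reads over the 59 WT cells, 0.551 CPM (0.353 to 0.820), against 58.7 and 72.2 CPM in the bulk Ngn3-high libraries. Vgf had 39 reads, 0.896 CPM (0.637 to 1.22), against 27.6 and 17.4 CPM in bulk. Chga, Chgb, Scg3 and Scg5 stood within 2-fold of their bulk means of 977, 8933, 324 and 48.3 CPM. In WT cells each of them lay below both of its bulk libraries. Scg3 stood at 176 CPM against 275 and 373 CPM, and Scg5 at 26.8 CPM against 47.5 and 49.01 CPM. Ins1 went with Scg2 and Vgf, at 2.18 CPM in single WT Ngn3-high cells against a bulk mean of 88.6 CPM. Library method and sort differ between the 2 data sets, and their part in the difference was not tested. In WT Ngn3-low cells Vgf had 0 reads, which allows up to 0.114 CPM for the group (exact 95% limit), and the lower counting limit of the ratio of WT Ngn3-high to WT Ngn3-low was 2.90 on the log2 scale.

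The bulk Ngn3-low libraries held more granin RNA than single Ngn3-low cells. The family's share was 0.00968% and 0.00604% in bulk against 0.00105% in WT cells. White blood cell markers, which summed to 2933 and 2459 CPM in bulk Ngn3-low, had a median sum of 1.54 CPM in single WT Ngn3-low cells. Neural crest, glia and autonomic neuron markers had a median sum of 89.8 CPM there, with a range of 0 to 579 CPM. The part of other cells in the bulk Ngn3-low granin level was not tested.

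Cells of the Ngn3-high gate differed widely in granin content. Chgb was at 10 CPM or more in 42 of 59 WT cells, 71.2% (57.9% to 82.2%), and its level ran from 0 to 40468 CPM with a median of 4924 CPM. Chga reached 10 CPM in 69.5% of cells (56.1% to 80.8%), with a median of 252 CPM and a highest cell at 4436 CPM. Scg3 reached it in 62.7% (49.1% to 74.96%) and Scg5 in 37.3% (25.04% to 50.9%). In WT Ngn3-low cells, taken as background, the shares were 8.16% for Chgb, 2.04% for Chga, 0% for Scg3 and 6.12% for Scg5, at a median depth of 608883 reads against 721848 in Ngn3-high. For Scg3, 0 of 49 cells allows a share of up to 7.25%. Scg2 reached 10 CPM in 1 WT Ngn3-high cell and Vgf in 3. Every Ngn3-high cell had granin reads, and the family's summed level ran from 1.22 to 43576 CPM over the WT cells.

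**Figure D3:**
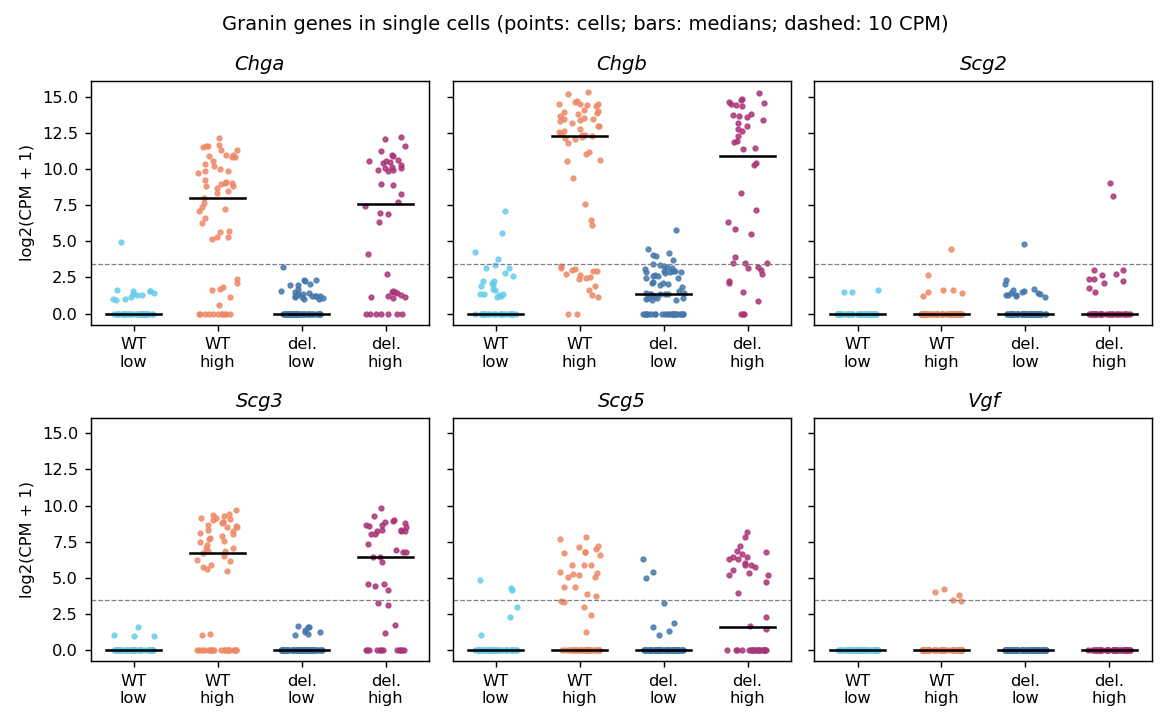
Level of each granin gene, as log2(CPM + 1), in every single cell of the 4 groups (49, 59, 69 and 44 cells). Points are cells, black bars are medians, and the dashed line is 10 CPM. Chga, Chgb and Scg3 form a high and a low cloud in both Ngn3-high groups, while Scg2 and Vgf lie near 0 in nearly every cell.

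The chromogranins and Scg3 were mostly found in the same cells. Over the 103 Ngn3-high cells of both genotypes, Chgb was at 10 CPM or more in 66 of the 68 cells with Chga and in 63 of the 65 cells with Scg3. Of the 75 cells with Chgb, 66 had Chga and 63 had Scg3. Scg5 was in 42 cells, of which 38 also had Chgb. All 3 Scg2 cells and all 3 Vgf cells also had Chga, Chgb and Scg3, and no cell had both Scg2 and Vgf. Of the 59 WT cells, 16 had Chga, Chgb and Scg3 alone, 16 had these with Scg5, and 14 had no member. In WT, 7 cells (11.9%) had 1 or 2 members, and in deleted cells 13 of 44 (29.5%) did. Each genotype is 1 sample here, so a difference between these shares was not tested. Levels over the 103 cells, those near 0 for both genes included, were also compared by correlation of log2(CPM + 1). Pearson values were 0.84 for Chga and Chgb, 0.85 for Chgb and Scg3, 0.79 for Chga and Scg3, and 0.41 for Chgb and Scg5. Rank values (Spearman) were 0.77, 0.77, 0.75 and 0.36 in the same order. Such values in part repeat the shared detection above. Cells are not replicates, because no animal is named for them, so these values are a description.

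**Figure D4:**
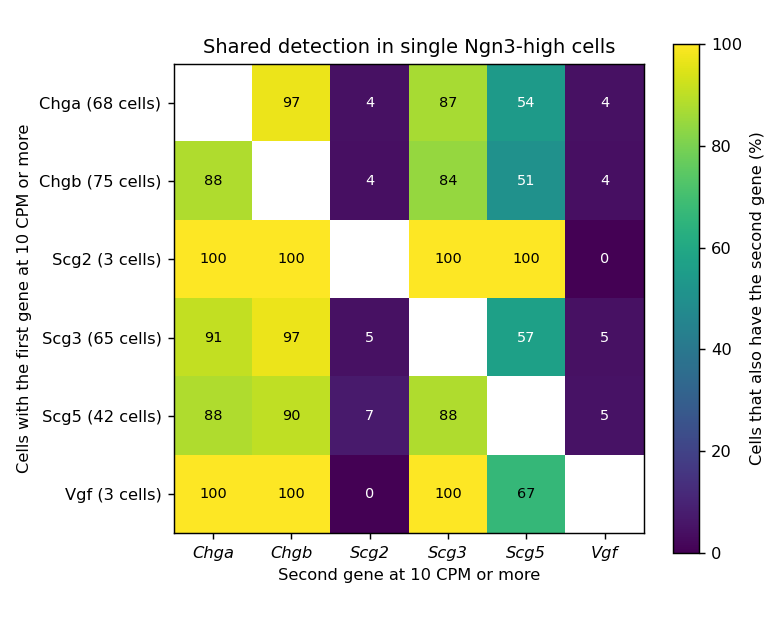
Percentage of the 103 single Ngn3-high cells with the first gene (rows, number of cells in brackets) that also had the second gene (columns), both at 10 CPM or more. Among Chga, Chgb and Scg3 the shares run from 84% to 97%, whereas Scg5 was in 54% of Chga cells, and Scg2 and Vgf cells were 3 each.

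Granin content went with higher Neurod1 and, in cells with 4 or 5 members, with lower Neurog3. The choice of members did not use these genes. Neurog3 and Neurod1 encode linked basic helix-loop-helix factors, and Neurod1 is a known target of Ngn3. The 14 WT cells with no member had a median Neurog3 level of 1651 CPM and a median Neurod1 level of 73.4 CPM. The 7 with 1 or 2 members had medians of 1997 CPM and 467 CPM. The 18 WT cells with 3 members had medians of 1424 CPM for Neurog3 and 913 CPM for Neurod1. The 20 WT cells with 4 or 5 members had medians of 47.97 CPM for Neurog3 and 952 CPM for Neurod1. The median of Neurod1 was thus higher in each class with more members, and that of Neurog3 was lowest with 4 or 5. Single cells overlapped between classes, since Neurog3 was as low as 2.74 CPM in a cell with 3 members and as high as 3633 CPM in a cell with 4 or 5. Median depths were 729246, 701788, 791300 and 680724 reads in these classes. In Jmjd3-deleted cells the Neurog3 medians were 2323 CPM for no member, 3052 CPM for 1 or 2, 1863 CPM for 3 and 38.8 CPM for 4 or 5.

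Of the 12 prohormone processing genes, 7 had a higher median in WT cells with 4 or 5 members than in those with none. A lower one was seen for 2 (Furin and Ctsl), and 3 were at 0 in both. Erp44, counted among the 7, differed little, at 152 CPM with no member and 167 CPM with 4 or 5. In deleted cells 6 of the 12 were higher and 3 lower. No test was made, and the share over all genes was not counted. The medians that follow are of WT cells. Cpe, the carboxypeptidase that trims prohormones, had medians of 2.70 CPM with no granin, 942 CPM with 3 and 1889 CPM with 4 or 5. Pam, the amidating enzyme, had medians of 12.6, 111 and 755 CPM, and Pcsk1n, which encodes an inhibitor of the convertase made by Pcsk1, 0, 22.2 and 204 CPM. Kdm6b was nearly level, with medians of 266, 263 and 243 CPM. Among the 8 WT Ngn3-high cells with Neurod1 under 10 CPM, 0 had Chga, 0 had Scg3 and 1 had Chgb. Among the 51 with Neurod1, 41 had Chga, 41 had Chgb and 37 had Scg3.

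**Figure D5:**
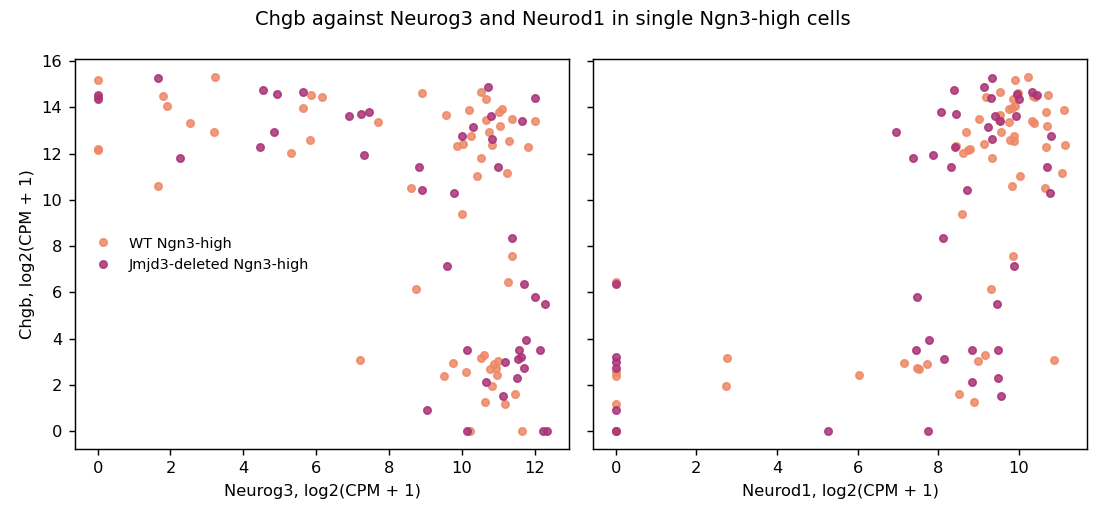
Chgb against Neurog3 (left) and Neurod1 (right), each as log2(CPM + 1), in the 59 WT and 44 Jmjd3-deleted single Ngn3-high cells. The 14 cells with Neurog3 under 10 CPM all lie at 1548 CPM of Chgb or more, the other 89 span the whole range, and the 12 cells with Neurod1 at 0 lie at 86.7 CPM of Chgb or less.

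Among the 9495 genes at 10 CPM or more in at least 20 of the 103 Ngn3-high cells, members were passed over. The others were ranked by likeness to each member over these cells, and the 3 likest are given. For Chgb they were Fev (Pearson r = 0.90), a serotonergic transcription factor also used in endocrine progenitors, Pax6 (0.87), a paired-box factor of islet cells, and Gnao1 (0.83), a G protein subunit. For Scg3 they were Gnao1 (0.84), Fev (0.82) and Pax6 (0.81), and for Chga Gnao1 (0.80), St18 (0.78) and Pax6 (0.77). Scg5 had lower values, led by A1cf (0.56), Ap1s2 (0.55) and Slc16a12 (0.55). Sst, Cmpk2 and Ankrd23 for Scg2 and Zc2hc1c, Mthfd1l and Isoc2b for Vgf rest on 3 cells each with the member at 10 CPM, so those likenesses carry no finding. Neurog3 ran the other way, with r from -0.59 for Scg5 to -0.50 for Chgb among Chga, Chgb, Scg3 and Scg5. In bulk, Fev shared the course of Chgb: it rose by 8.66 (SE 0.230, edgeR adjusted p = 2.83e-07) and then changed by -2.76 (SE 0.148, edgeR adjusted p = 6.29e-06). Pax6 and Gnao1 rose first and were not called in the second interval, at 0.26 and 0.16 (adjusted p = 0.0954 and 0.282).

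The Jmjd3-deleted cells were compared with WT cells gate by gate. Kdm6b, the targeted gene, stood at 55.5 CPM in deleted against 131 CPM in WT Ngn3-low cells, and at 107 against 265 CPM in Ngn3-high. Reads from exons outside the floxed part still count, so its level does not measure the loss. Chga, Chgb and Scg3 in Ngn3-high cells stood at 729, 7193 and 172 CPM in deleted cells, against 749, 7895 and 176 CPM in WT. The differences were -0.04, -0.13 and -0.04 on the log2 scale with 1 CPM added. Scg5 stood at 35.4 CPM against 26.8 CPM, a difference of 0.39. Of 11101 genes at 5 CPM or more in either group, 2.96% were at least 2-fold higher and 2.76% at least 2-fold lower in deleted cells. Scg2 was the only granin gene among them, while Vgf was under the 5 CPM limit.

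The middle number of the cell titles, whose meaning is not stated, shows how far groups of cells within one genotype spread. In Ngn3-high, cells with number 1 had Chga at 795 CPM in WT and 632 CPM in deleted cells, number 5 had 640 and 1238 CPM, and number 6 had 730 and 315 CPM. The genotype difference thus changed direction from number to number. Chgb stood at 6792 and 7124 CPM for number 1, 9522 and 10937 CPM for number 5, and 8967 and 1643 CPM for number 6. Number 6 holds only 6 deleted cells, and they were the lowest for Chga, Chgb, Scg3 and Scg5. Without them the family's pooled difference turned from -0.12 to 0.07 on the log2 scale. For Chga, Chgb, Scg3 and Scg5 the ranges over title numbers of the 2 genotypes overlapped.

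Scg2 and Vgf differed between genotypes through a few cells. Scg2 stood at 13.1 CPM in deleted Ngn3-high cells (11.9 to 14.4) against 0.551 CPM in WT, a log2 difference of 3.18. Of its 422 reads, 247 and 151 came from 2 cells of title number 5, at 528 and 279 CPM, and the deleted cells of numbers 1 and 6 had 0 and 1 reads. The 528 CPM cell had 0 reads of Ins1 and Ins2 and Iapp at 6.41 CPM. The 279 CPM cell had Ins1 at 435 CPM, Ins2 at 1187 CPM and Iapp at 1891 CPM. The 1 WT Ngn3-high cell with Scg2 over 10 CPM, at 21.01 CPM, had Ins1 at 71.7 CPM. Vgf had 39 reads in WT Ngn3-high cells and 0 reads in deleted ones, which allows up to 0.114 CPM for the group. By title number it stood at 0.341 to 1.88 CPM in WT cells and at 0 in deleted cells. The 0 reads of deleted cells allow up to 0.473 CPM for number 5 and 0.735 CPM for number 6. Both limits lie above the lowest WT value, so the counts do not set these ranges apart. Its WT reads lay in 5 of 59 cells. At 10 CPM or more the share was 5.08% of WT cells (1.06% to 14.1%), and 0 of 44 deleted cells allows a share of up to 8.04%, so a difference in this share was not detectable at this number of cells. Pooled over Ngn3-low cells, all 6 genes stood under 10 CPM in both genotypes. There Chgb stood at 3.99 CPM in deleted against 7.48 CPM in WT cells, a log2 difference of -0.77. Scg2 stood at 0.671 against 0.0928 CPM, a log2 difference of 0.61. For both genes the ranges over title numbers overlapped.

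The genes around the granins in the granule pathway mostly rose in the first interval too. Of 12 prohormone processing genes, 8 rose and 1 fell from Ngn3-low to Ngn3-high, with a median of 2.40 on the log2 scale against -0.01 for all genes, of which 27.7% rose and 30.2% fell. Pcsk1, the convertase acting early on prohormones, rose by 5.92 (SE 0.243), from 6.25 to 362 CPM, and Cpe by 5.15 (SE 0.217). Pcsk2, the convertase that needs Scg5, rose by 4.43 (SE 0.220), from 24.03 to 493 CPM. All 14 tested genes of granule membrane and cargo sorting rose, with a median of 2.36, led by Tmem163 at 6.45 (SE 0.277), the granule phosphatase relatives Ptprn2 at 5.75 (SE 0.211) and Ptprn at 4.81 (SE 0.196), and Sez6l2 at 3.94 (SE 0.197). Of 24 genes of docking and release, 22 rose and 1 fell, with a median of 2.72. Cadps, a priming factor of dense-core granules, rose by 4.83 (SE 0.121), and the vesicle calcium sensor Syt7 by 4.55 (SE 0.190).

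In the second interval each of these lists had both rises and falls, where 26.1% of all genes rose and 24.9% fell. Prohormone processing had 7 rises and 3 falls of 12, granule membrane 9 and 2 of 14, and docking and release 12 and 6 of 24, with medians of 0.68, 0.51 and 0.45. The falls in prohormone processing and in docking and release are at the share over all genes. Pcsk2 rose by 2.71 (SE 0.201) to 3043 CPM, near the 3.09 of its chaperone gene Scg5. In the first interval the 2 genes lay further apart, at 4.43 for Pcsk2 and 3.15 for Scg5. Slc30a8, the zinc transporter of insulin granules, rose by 6.59 (SE 0.266), and Sytl4, a granule-binding protein, by 5.13 (SE 0.270). Sytl5 fell by 2.04 (SE 0.179). The granin members had a median of 2.20, with Chgb the one that fell.

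Hormone genes and endocrine transcription factors rose with the granins in the first interval and parted in the second. Of 11 peptide hormone genes, 9 rose and 0 fell in the first interval, where 27.7% of all genes rose and 30.2% fell. In the second, 6 rose and 3 fell, where 26.1% of all genes rose and 24.9% fell, so the falls are near the share over all genes. Ghrl, Cck, Gast and Pyy led the first, with Cck at 6.66 (SE 0.279), and Cck then changed by -6.46 (SE 0.278). Ins2 rose by 8.30 (SE 1.15) and Sst by 7.71 (SE 0.632) in the second. All 17 endocrine transcription factors, Neurog3 that set the sort included, rose in the first interval, and 3 rose and 11 fell in the second, with a median of -0.97. Pax4 fell by 4.94 (SE 0.183) and Neurog3 by 5.29 (SE 0.170). Chgb, alone of the 6 granins, moved in the direction of most of these factors in both intervals.

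Rest encodes a repressor known to keep neuronal and granule genes silent outside neurons and endocrine cells. It stood at a mean of 174 CPM in bulk Ngn3-low and 9.02 CPM in Ngn3-high, a difference of -4.21 (SE 0.231, edgeR adjusted p = 1.84e-06), and was not called between Ngn3-high and Ins1-RFP+ at -0.17 (adjusted p = 0.583). In single cells it stood at 159 CPM in WT Ngn3-low and 5.47 CPM in WT Ngn3-high. Its median was 0 CPM in all 4 granin classes of WT Ngn3-high cells, those with no member included. Its partners did not all move with it: of 10 listed genes of the complex, Rest included, 5 rose and 3 fell in the first interval, where 27.7% of all genes rose and 30.2% fell, so the falls are at the share over all genes. Rcor2 rose by 1.41 (SE 0.115) and Kdm1a by 1.15 (SE 0.112), and both then fell, by 2.32 (SE 0.119) and by 0.91 (SE 0.111).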

How the data were processed

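Bulk RNA was selected for poly(A) and single cells were amplified with Smart-seq2, with ERCC spike-in RNA added, per the labels' protocols. The authors deposited whole-number read counts per gene and RPKM values. Tools named in the submitters' processing notes are HTSeq 0.6.0, TopHat2 2.1.0, DESeq 1.20.0 and Bowtie2, with the build mm10. Annotation and strand setting are not given in the sources here, so antisense partners cannot be told apart. The 92 ERCC entries were left out. CPM is counts per 1000000 reads in genes, and levels per length use the gene length deposited with the counts.

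Bulk counts were tested with edgeR 4.0.16 in R 4.3.3: its expression filter, trimmed-mean (TMM) scaling, 1 quasi-likelihood fit to the 6 libraries, and a Benjamini-Hochberg threshold of 0.05 over 15684 genes. The script was tested on simulated data. Replicate libraries differed by more than sampling noise (chi-square per degree of freedom 12.9 to 57.9). DESeq2 1.42.0, other scalings, no filter, a replicate block, 2 groups at a time and leaving out each library were tried. Single cells were summed per group, with 1 CPM added for ratios and 10 CPM as the detection threshold. All 221 cells were kept and no doublet caller was run. Exact Poisson and Clopper-Pearson intervals have 95% confidence, and also give the limit for a group without reads.

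The members and lists were chosen with earlier results of these data known. Named genes were the members, Neurog3, Neurod1, Ins1, Ins2, Rest and Kdm6b, up to 4 called genes per list and interval with the largest differences at 10 CPM or more, and 3 likest genes per member. Ccdc186 was listed but is not analysed here, and 1 gene of the endocrine transcription factor list is counted but its values are not reported here. The 31 chromatin immunoprecipitation samples are not used here.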

Additional observations from a re-analysis of the deposited data

How the results depend on the processing

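The 18 member differences in bulk were each recomputed under 12 alternatives. Of 216 values, 215 kept direction and call, and 1 lost its call: Vgf from Ngn3-high to Ins1-RFP+, at 1.12 (adjusted p = 0.0588) without Ngn3-high library 2, with a range of 0.96 to 1.83 over the libraries left out. The library then alone in its group is assumed to vary like the other groups. Counts of members moved by less than 1.5 times. With the replicate number as a block, Chgb stood at 8.63 and -1.83 in the 2 intervals, and the block changed no call of a member. Same-numbered libraries deviated with correlations of 0.0671, 0.0930 and 0.0303. The labels do not say whether the numbers pair the samples, and these low values cannot decide it. Leaving acinar and hormone genes out of the total moved the family's mean CPM by less than 1 SD in each group.
The single-cell family ratios have no test, and on the log2 scale they kept their direction between gates and not between genotypes. Ngn3-high minus Ngn3-low stood at 9.59 in WT cells and at 9.90 with means of per-cell CPM, 9.42 with means of the deposited RPKM and 8.76 with 10 CPM added, with a range of 9.35 to 10.05 when a title number was left out. In deleted cells it stood at 9.89, and at 9.23 with means of RPKM, 10.05 with 0.1 CPM added and 8.86 with 10 CPM added, with a range of 9.45 to 10.09. Deleted minus WT in Ngn3-high stood at -0.12, at -0.10 with means of CPM and -0.082 with means of RPKM, with a range of -0.39 to 0.066. In Ngn3-low it stood at -0.42, at 0.0043 with means of CPM and 0.11 with means of RPKM, with a range of -0.66 to 0.041. The cause of these shifts was not tested. Of 220 recomputed single-cell ratios of members, 17 changed sign, 10 of them between genotypes in Ngn3-high. Shares of cells stayed within their intervals for 24 of 24 values after thinning to 350000 reads, 12 at 100 CPM and 11 at 1 read. Depth limits Vgf, with 9 and 27 reads in bulk Ngn3-low and 39 in single WT Ngn3-high cells, and Scg2, with 24 in those cells.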

Other observations

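The cells with the rarer granins were looked at after their values were seen, as a description of 6 Ngn3-high cells and 1 Ngn3-low cell. The 2 Jmjd3-deleted Ngn3-high cells with Scg2 at 528 and 279 CPM had Neurog3 at 2.14 and 27.7 CPM, and Pyy, a gut and islet peptide hormone gene, at 337 and 1266 CPM. The WT Ngn3-high cell with Scg2 at 21.01 CPM had Chgb at 23000 CPM and Neurog3 at 2.47 CPM. The 1 Ngn3-low cell with Scg2 over 10 CPM, a deleted cell at 27.5 CPM, had 0 reads of Chga, Scg3, Scg5 and Neurog3, and Sst at 54.99 CPM. The 3 Vgf cells, all WT, were unlike each other in Neurog3, at 1459, 0 and 2502 CPM, and in Pyy, at 2.01, 4192 and 285 CPM. Each of these cells rests on 6 to 247 reads of the granin named.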
